A study of Mus musculus with 28 samples.

Results

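The 35 genes described here encode the machinery with which a mouse cell makes, senses, takes up, moves, stores and exports cholesterol, and they were followed in developing peripheral nerve. They were chosen by gene function, with earlier results of these data known, and were 35 of the 41605 genes in the count table and of the 17700 that passed a filter on low counts, which all 35 passed. They comprised 8 enzymes of the mevalonate pathway and its isoprenoid branch, 12 enzymes that turn farnesyl units into squalene and cholesterol, 7 genes that control the pathway, and 8 genes of cholesterol transport and storage. The lowest count of any of them in any library was 9, for Nr1h3.

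Cholesterol is built from acetyl units through mevalonate, isoprenoid units, squalene and lanosterol in a long chain of enzymes. When sterol in the endoplasmic reticulum is low, the Insig1 protein no longer holds back the Scap protein, the escort of the transcription factor SREBP2. SREBP2, the product of Srebf2, then switches on most enzymes of the chain. When sterol is plentiful, oxysterols activate the LXR receptors encoded by Nr1h2 and Nr1h3, whose known targets Abca1, Abcg1, Mylip and Apoe serve export and limit uptake. Myelin membrane is rich in cholesterol, and Schwann cells, the glia that myelinate peripheral axons, make much of it themselves.

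The data were read counts from bulk mRNA sequencing of nerve from wild-type C57BL/6J mice at 7 stages, embryonic (E) E13 and E17 and postnatal (P) P1, P5, P14, P24 and P60, with 4 libraries for each stage and 28 in all. E13 and E17 are the sample labels, and the study gives both embryonic ages as a fraction of a day later. There was no treatment and no altered allele in any group, so each comparison is between ages. By the study's methods a postnatal library came from the sciatic nerves of 1 mouse, an E17 library from those of 2 pooled embryos of the same sex, and an E13 library from several kinds of peripheral nerve of 2 pooled embryos. Each stage held libraries of both sexes, and the outer sheaths (epineurium and perineurium) were stripped from E17 onwards but not at E13. Values are CPM, counts per 1000000 counts of the TMM-scaled library size, means are given ± SD over the 4 libraries of a stage (n = 4), and a gene is said to have risen or fallen where edgeR's quasi-likelihood test gave an adjusted p under 0.05 over all 17700 genes.

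Library totals ran from 13899895 to 37662780 counts. The sums of 8 myelin markers ran from 134 to 226 CPM over the E13 libraries, from 2936 to 3249 CPM at E17, and from 66433 to 82675 CPM at P14. The sums of 6 markers of neuron cell bodies ran from 814 to 1389 CPM at E13 and from 8.57 to 51.7 CPM over all later libraries, so E13 differs from E17 in tissue as well as in age, and these cannot be told apart. In 3 libraries, E13 replicates 1 and 4 and P1 replicate 1, the deviation from the stage mean followed the GC content of transcripts, with slopes of -0.93, 0.72 and -0.42 log2 units per 10 percentage points of GC against -0.16 to 0.20 in the others. In whole tissue, fewer cells of a type and less RNA per cell cannot be told apart, in any comparison given here.

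The letters upstream of the genes are given before their levels, because the pathway is known for a shared promoter code. RefSeq promoters (build GRCm38.p6, 250 bases before the transcript start) were on hand for 29 of the 35 genes, and Fdps, Fdft1, Sqle, Npc1, Stard4 and Abcg1 had none in the table. On both strands, the letters CCAAT, the box bound by NF-Y, a partner of SREBP2, stood in 16 of the 20 promoters of the enzymes, or 80%, against 33.9% of all 32841 promoters of this length and 34.7% of the 15969 promoters of tested genes. They were found in 16 of the 17 enzyme genes with a promoter, Ggps1 and Lbr among them, and Acat2 was the exception, against 39.9% of the 12511 tested genes in the table. In the control genes 4 of 11 promoters (36.4%) and 4 of 7 genes held these letters, and in the transport genes 2 of 7 promoters (28.6%) and 2 of 5 genes. The letters CACNCCAC, the core of a sterol regulatory element bound by SREBP, stood upstream of Hmgcs1, Acat2 and Insig1, that is in 7.89% of member promoters against 5.29% of all. The letters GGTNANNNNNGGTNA, a direct repeat bound by LXR, stood upstream of Abca1 alone among the members, and in 0.621% of all promoters. The upstream bases of these 4 genes follow, 5′ to 3′ on the gene's strand, with matches to either motif and to the box in capitals. On the opposite strand the box reads ATTGG. No 2 of the marked matches overlapped. The stretches are chr13:119690101-119690350 (plus strand) for Hmgcs1, chr17:12960748-12960975 (minus strand) for Acat2, chr5:28071382-28071411 (plus strand, inside the GENCODE gene, which starts at 28071363) for Insig1 and chr4:53159896-53160145 (minus strand) for Abca1.
Hmgcs1: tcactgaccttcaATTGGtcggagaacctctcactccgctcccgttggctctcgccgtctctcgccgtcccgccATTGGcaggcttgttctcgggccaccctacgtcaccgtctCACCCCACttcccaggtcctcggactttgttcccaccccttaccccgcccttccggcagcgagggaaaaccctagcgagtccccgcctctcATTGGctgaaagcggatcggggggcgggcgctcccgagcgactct
Acat2: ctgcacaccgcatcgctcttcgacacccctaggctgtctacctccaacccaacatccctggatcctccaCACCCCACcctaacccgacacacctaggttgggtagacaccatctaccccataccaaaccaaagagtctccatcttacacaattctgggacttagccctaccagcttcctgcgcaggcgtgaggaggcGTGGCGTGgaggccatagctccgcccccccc
Insig1: gggcgcggtacgtgtagtgtcGTGGCGTGt
Abca1: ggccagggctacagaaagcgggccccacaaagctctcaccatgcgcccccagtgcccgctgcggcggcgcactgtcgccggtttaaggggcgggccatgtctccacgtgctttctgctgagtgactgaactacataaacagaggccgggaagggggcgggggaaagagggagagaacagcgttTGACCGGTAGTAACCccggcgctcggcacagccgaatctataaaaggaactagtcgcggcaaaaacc
In Hmgcs1 the sterol element core began 136 bases before the start, between CCAAT boxes at 176 and 45 bases. Acat2 held the core at 181 and at 53 bases, Insig1 at 9 bases, and the Abca1 repeat began at 67 bases. All distances are from the RefSeq start, and the printed stretch of Acat2 leaves out the last 22 bases before it, which lie inside the GENCODE gene. Matches of letters are a description of these windows and do not show that a factor binds there.

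From E17 to P14, while myelin is laid down, the genes of synthesis rose nearly as a block. Of the 35 genes 30 rose and 3 fell, against 29.5% and 27% of all genes tested, and 25 of the 35 were at least 2-fold higher, against 18% of all genes. Among the 20 enzymes 18 rose, each by at least 2-fold, and their median log2 fold change was 2.27 where the median of all genes was 0.00. Lbr fell, and Ggps1 did not pass (log2 fold change -0.15). After P14 the direction turned: at P60, 16 of the 35 were lower and 5 higher than at P14, against 15.7% and 14.2% of all genes, and 12 were at least 2-fold lower, against 5.81%. All 12 were enzymes, and the enzymes' median log2 fold change was -1.22. Both comparisons use the same P14 libraries, so they are not independent of each other. Over all stages together 34 of the 35 genes passed the test, as did 88.8% of all genes, and Ggps1 did not (adjusted p = 0.59).

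**Figure D1:**
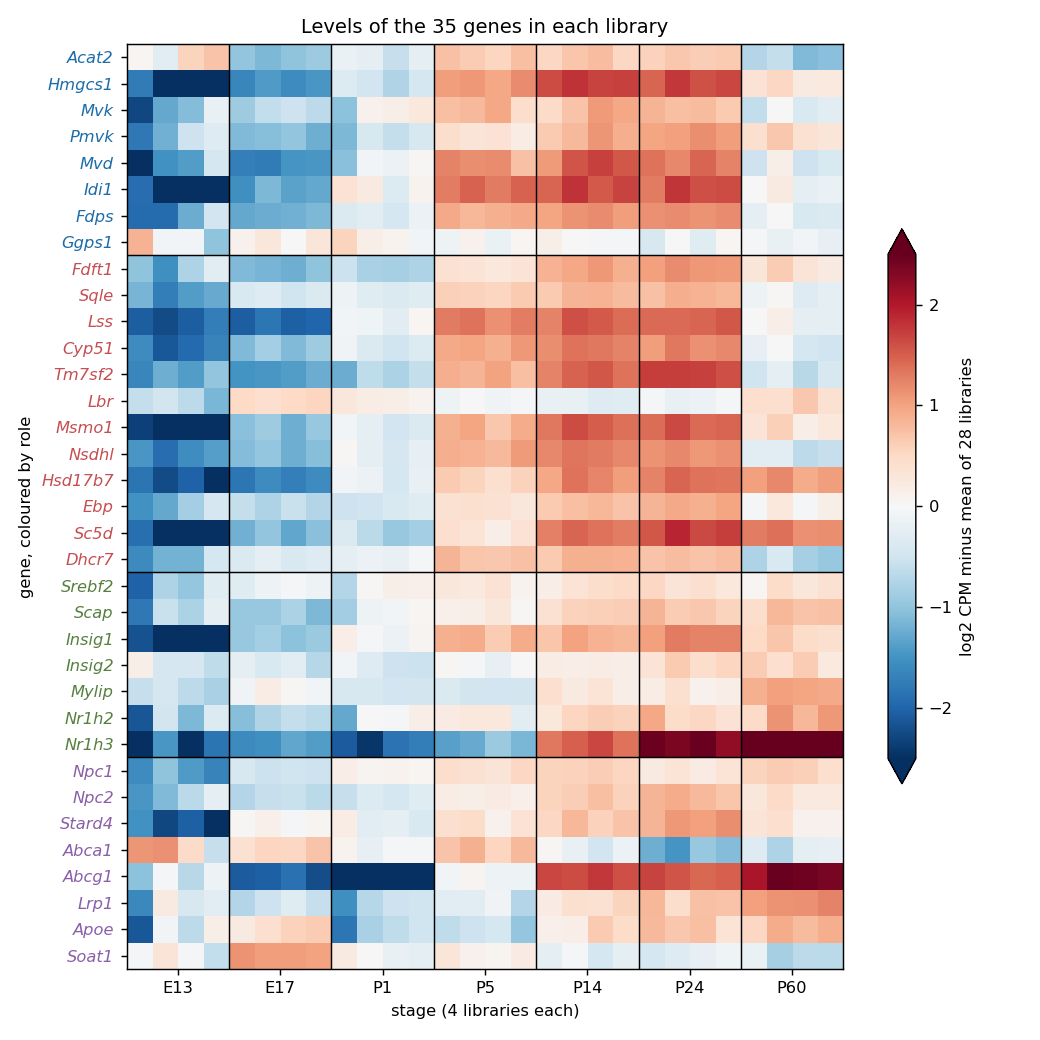
Level of each of the 35 genes (rows, gene names coloured by role) in each of the 28 libraries (columns, 4 for each stage), as log2 CPM minus the gene's mean over the 28 libraries, with colours ending at 2.5 either way. Most enzyme rows turn from blue at E13 and E17 to red at P14 and P24 and back toward white or blue at P60, while Nr1h3 and Abcg1 are darkest red at P60.

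**Figure D2:**
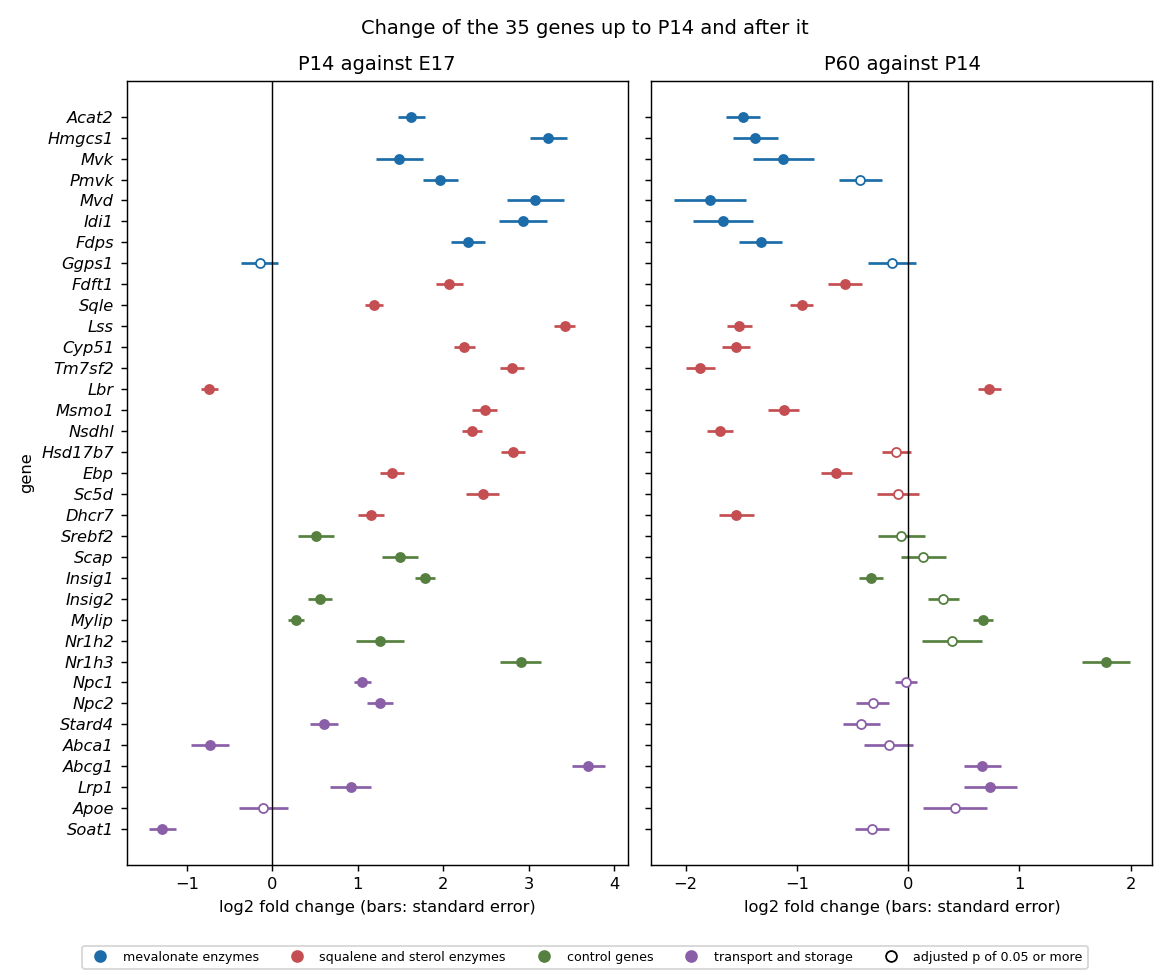
Log2 fold change of each gene (vertical axis) at P14 against E17 (left) and at P60 against P14 (right), with bars for the standard error and colours for the role, and open circles where the adjusted p was 0.05 or more. On the left 18 of the 20 enzymes lie above 1, and on the right 15 of them fell and Lbr rose.

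The rise was spread over 4 steps, with the largest share between P1 and P5. From E13 to E17, 18 of the 35 genes rose (28.1% of all genes) and 2 fell (34.1%), the latter being Acat2 and Abcg1. With library size alone as the scaling, which moved the median of all genes by -0.33, these became 15 and 6. From E17 to P1, 14 rose (15.1% of all genes) and 6 fell (14.4%), and 11 of the 14 were enzymes. From P1 to P5, 25 rose (10.3% of all genes), 18 of them enzymes with a median log2 fold change of 1.04 over the 20. None of the 35 fell in edgeR's test of this step (7.33% of all genes did), while 1, Lbr, was lower at an unadjusted p under 0.05 and in both the DESeq2 and the limma-voom test. Of the 20 enzymes 15 had their largest single rise at this step, among the steps from E17 on. The same count was not made for all genes. From P5 to P14, 15 genes rose (15.4% of all genes) and 2 fell (14.2%), and 9 of the enzymes were among the former. Library size alone gave 9 and 3 here, with the median of all genes at -0.17.

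Between P14 and P24 few of the genes passed. Nr1h3 rose and Abca1 fell, 1 gene each way, where 2.72% of all genes rose and 2.72% fell, and none of the 20 enzymes passed edgeR's test. At an unadjusted p under 0.05, 2 enzymes and 8 of the 35 genes differed, and library size alone as the scaling gave 2 rises and 1 fall. DESeq2 called 4 of the 35 and no enzyme, while limma-voom called 8, with Tm7sf2 and Sc5d higher at P24, and edgeR without the E13 libraries called 9. Shares of all genes were not counted for the unadjusted p or for these alternatives, so these counts have no background. Then, from P24 to P60, 19 genes fell (9.23% of all genes) and 5 rose (6.84%). Of the enzymes 16 fell and Lbr rose, with a median log2 fold change of -1.21. The stage of the highest mean was P14 for 7 enzymes and P24 for 10, where 6.34% and 7.99% of all tested genes had theirs. For most of these the libraries of P14 and P24 overlapped, the exceptions being Tm7sf2, Ebp and Sc5d. Over all 17700 genes tested, 2929 had no overlap between P14 and P24, as had 4 of the 20 enzymes (these exceptions and Lbr). With library size alone the highest mean moved from P14 to P24 for Idi1 and from P14 to P5 for Mvk and Dhcr7.

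The mevalonate enzymes start the chain. Hmgcs1, the synthase that makes HMG-CoA, was the most abundant member per length at P14, at 938 CPM per kilobase of exon against 189 for the next, Apoe, and at E17 it was second to Apoe, with 100.1 against 203. In the 4 E17 libraries Hmgcs1 was at 423, 493, 444 and 480.1 CPM, and in the 4 P14 libraries at 4106, 4613, 4236 and 4283 CPM. Every P14 library was far above every E17 library, and the rise was 9.37-fold (log2 fold change 3.23 ± 0.22 (SE), adjusted p = 7.2e-13). At P60 the mean was 1665 ± 162 CPM, 2.59-fold below P14 (adjusted p = 6.4e-06). An antisense gene shares 12.1% of its exonic bases, a limit if counting ignored strand.

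Mvd, which decarboxylates mevalonate diphosphate to isopentenyl diphosphate, ran at 17.2, 16.7, 20.3 and 20.5 CPM in the E17 libraries and at 118, 166, 182 and 165 CPM in the P14 libraries. The stages did not overlap, although P14 replicate 1 lay well under the other 3, and the rise was 8.45-fold (adjusted p = 1.2e-08). Its P60 libraries, at 39.4, 62.1, 39.2 and 42.9 CPM, all lay under the lowest P14 library, and the level was 3.44-fold lower (adjusted p = 9.5e-05). Idi1, the isomerase of the next step, was at 19.9, 26.3, 22.9 and 23.6 CPM at E17 and 158, 200.5, 166 and 185 CPM at P14. It rose 7.65-fold with no overlap (adjusted p = 1.1e-09) and had fallen 3.17-fold by P60 (adjusted p = 2.5e-05). Idi1, with Lss and Hsd17b7, was 1 of 3 enzymes whose largest single rise, among the steps from E17 on, was from E17 to P1 (2.67-fold, adjusted p = 0.00020).

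The other mevalonate enzymes kept to this course with smaller ranges. Fdps, which makes farnesyl diphosphate, rose 4.90-fold to 635 ± 38.7 CPM at P14, and a same-strand gene shares 26.7% of its exonic bases, so part of its counts may be uncertain. Pmvk, phosphomevalonate kinase, rose 3.91-fold, Acat2, which joins acetyl-CoA units, 3.09-fold, and Mvk, mevalonate kinase, 2.80-fold. By P60, Acat2 had fallen 2.80-fold, Fdps 2.5-fold and Mvk 2.17-fold, while Pmvk did not pass against P14 (log2 fold change -0.43, adjusted p = 0.10) but did against P24 (adjusted p = 0.032, lost when any of 6 libraries was left out). Acat2 differed from the rest at E13, where it stood at 130.1 ± 39.5 CPM, 2.5-fold above E17. Ggps1, which sends farnesyl diphosphate toward protein prenylation and not toward sterol, kept a mean between 35.4 and 45.2 CPM at every stage, and no comparison of it passed.

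The first steps past the branch are made by Fdft1, squalene synthase, and Sqle, squalene epoxidase, a rate-limiting step. Sqle ran at 167, 174, 155 and 169 CPM in the E17 libraries, 362, 411, 399 and 389 CPM in the P24 libraries and 199, 223, 174 and 186 CPM in the P60 libraries. The P24 values were all well above both other stages, whose ranges overlapped each other. The gene rose 2.28-fold from E17 to P14 (adjusted p = 1.2e-10) and fell 2.00-fold from P24 to P60 (adjusted p = 6.6e-08). Fdft1 rose 4.21-fold and fell less, by 1.48-fold from P14 to P60 (adjusted p = 0.0056), with 18.3% of its exonic bases shared with Ctsb on the other strand.

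Lss, which closes squalene epoxide into lanosterol, had the largest log2 fold change of the enzymes from E17 to P14, 3.42 ± 0.12 (SE) beside the 3.23 ± 0.22 of Hmgcs1, and the difference between the 2 genes was not tested. It was at 50.8, 60.3, 51.6 and 53.8 CPM at E17 and already at 202, 197, 174 and 219 CPM at P1, and reached 564, 563, 582 and 618 CPM at P24. No 2 of these stages overlapped, and the rise was 3.66-fold to P1 (adjusted p = 6.1e-13) and 10.7-fold to P14 (adjusted p = 1.2e-18). Cyp51, which removes a methyl group from lanosterol, rose 4.76-fold to P14 and fell 2.93-fold to P60. Msmo1 and Nsdhl, which act on the remaining methyl groups, rose 5.60-fold and 5.07-fold and fell 2.17-fold and 3.23-fold. Ebp, the sterol isomerase, rose 2.64-fold and fell 1.56-fold. Dhcr7, the last reductase of the chain, rose 2.23-fold and fell 2.91-fold, to 49.7 ± 8.78 CPM at P60 against 65 ± 2.85 CPM at E17.

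Tm7sf2 and Lbr encode the paired sterol reductases that act on the same intermediate, and their courses were opposite. Tm7sf2 was at 18.3, 18.7, 19.6 and 21.7 CPM at E17 and 170.0, 170.2, 168 and 157 CPM at P24, and had dropped to 36.4, 43.1, 31.8 and 38.8 CPM at P60. It rose 6.99-fold to P14 (adjusted p = 1.1e-15) and fell 4.44-fold from P24 to P60 (adjusted p = 1.1e-11), with no overlap either way. Lbr, which also anchors chromatin at the nuclear envelope, went from 76.7 ± 2.29 CPM at E17 down to 46 ± 2.41 CPM at P14 (adjusted p = 7.7e-07) and back to 76.2 ± 7.37 CPM at P60 (adjusted p = 3.8e-06). In CPM per kilobase Lbr was above Tm7sf2 at E17, at 16.1 against 4.44, and below it at P14, at 9.67 against 31.1. Vps51 shares 12.1% of the exonic bases of Tm7sf2 on the same strand.

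Hsd17b7 and Sc5d climbed with the others, and at P60 neither passed edgeR's test against P14. Hsd17b7, a sterol ketone reductase, was at 24.4, 28.9, 26.1 and 28.9 CPM at E17, 203, 233, 219 and 215 CPM at P24 and 173, 198, 162 and 177 CPM at P60. The P60 libraries all lay below those of P24 but far above E17, and neither P60 against P14 (log2 fold change -0.11, adjusted p = 0.60) nor P60 against P24 (adjusted p = 0.14) passed. Sc5d, the sterol desaturase, reached 584 ± 61.3 CPM at P24 and was at 419.9 ± 32.2 CPM at P60 (against P14, adjusted p = 0.77, and against P24, adjusted p = 0.081). The P60 level was 6.56 times the E17 level for Hsd17b7 and 5.17 times for Sc5d, whereas it was 1.11 times for Acat2, 1.18 for Sqle and 0.764 for Dhcr7. These ratios are given with no test. A fall from P24 to P60 passed in 5 of 20 alternative fits for each of the 2 genes, with the lowest adjusted p at 0.0044 for Hsd17b7 and 2.3e-05 for Sc5d, and the P60 libraries of Sc5d all lay below those of P24 too.

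**Figure D3:**
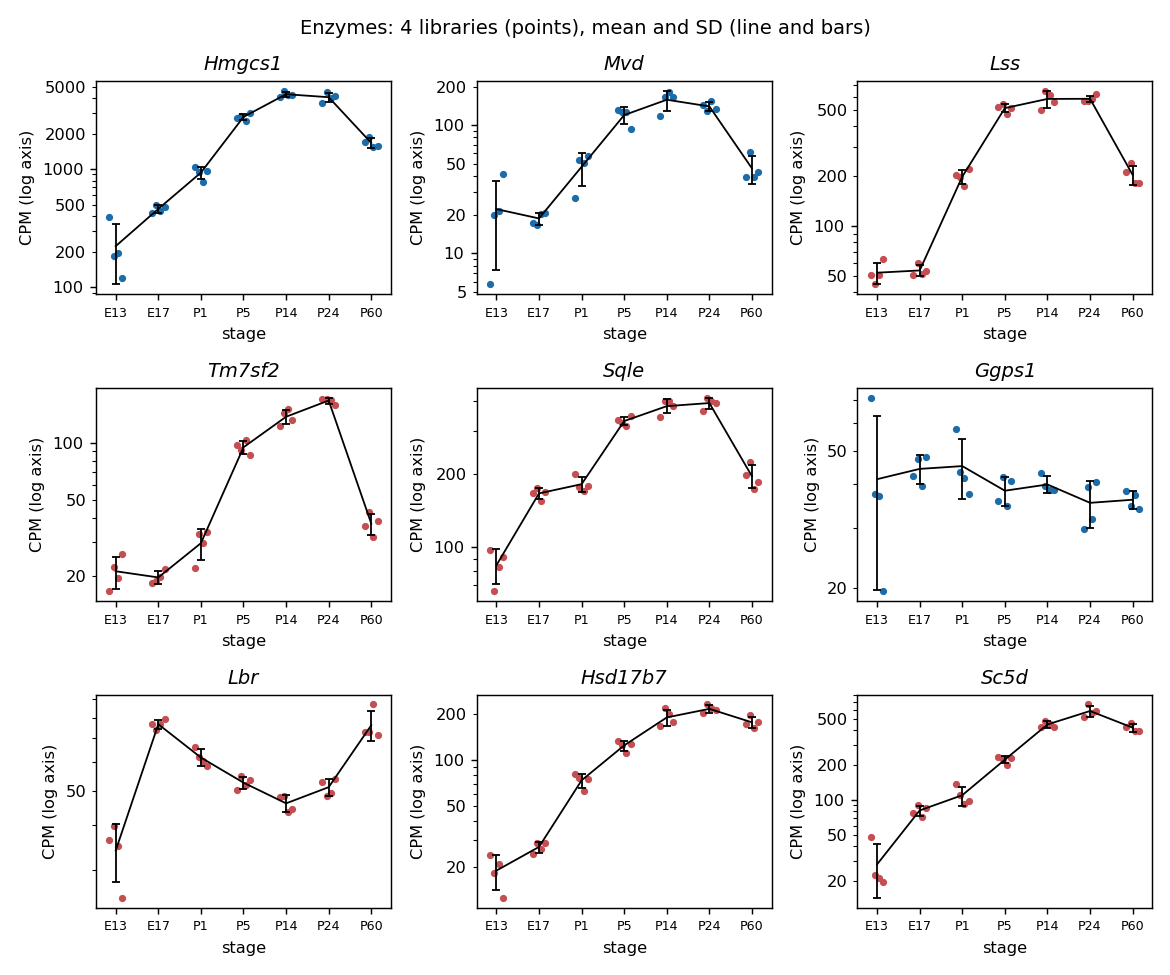
CPM on log axes against stage for 9 enzymes, with points for the 4 libraries of a stage and lines and bars for the mean and SD. Hmgcs1, Mvd, Lss, Tm7sf2 and Sqle climb to P14 or P24 and drop at P60, Hsd17b7 and Sc5d are still far above E17 at P60, Lbr dips, and Ggps1 keeps a mean of 35.4 to 45.2 CPM.

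Among the control genes the sensors and switches did not share a course. Srebf2, which encodes the master switch of the enzymes, was at 184, 206, 217 and 207 CPM in the E17 libraries, 322, 281, 299 and 272 CPM at P24 and 235, 309, 275 and 295 CPM at P60. P24 and P60 overlapped each other, and both lay above E17. The rise from E17 to P14 was 1.43-fold (log2 fold change 0.51 ± 0.21 (SE), adjusted p = 0.041), a call that was lost without E17 replicate 1, 2 or 4 or without P14 replicate 2, 3 or 4 (adjusted p 0.061 to 0.092). With library size alone the log2 fold change was 0.02 (adjusted p = 0.94), and 9 of the 20 alternatives lost the call. No later comparison passed. Its range of stage means from E17 on was larger than that of just 16.3% of tested genes. Scap, the escort of SREBP2, rose 2.82-fold to P14 and held 122 ± 13.6 CPM at P60, although a gene on the other strand shares 13.2% of its exonic bases.

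Insig1, itself a known SREBP2 target that holds Scap back, followed the enzymes. It was at 73.5, 78.5, 69.9 and 74.6 CPM at E17, 287, 347, 334 and 334 CPM at P24 and 199, 230.2, 194 and 188 CPM at P60. No stage of the 3 overlapped another, and Insig1 rose 3.45-fold to P14 (adjusted p = 1.9e-13) and fell 1.60-fold from P24 to P60 (adjusted p = 5.1e-05). Its paralogue Insig2 rose 1.47-fold to P14 (adjusted p = 0.0016) and stood at 37.1 ± 3.44 CPM at P24 and 37 ± 4.89 CPM at P60. The rise of Insig2 was lost in 2 of 20 alternatives, with the log2 fold change down to 0.065 and the adjusted p up to 0.72.

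Of the LXR receptor genes and their uptake target, Nr1h3 and Mylip rose from P24 to P60. Nr1h3, encoding LXR alpha, was at 1.02, 0.791, 1.20 and 1.30 CPM in the P1 libraries, 10.7, 12, 13.7 and 11 CPM at P14 and 35.5, 43.7, 40.2 and 43.1 CPM at P60. The stages were far apart, and it rose 6.17-fold from P5 to P14 (adjusted p = 1.8e-09), 1.88-fold from P14 to P24 (adjusted p = 0.0076) and 1.82-fold from P24 to P60 (adjusted p = 0.0042). Nr1h2, encoding LXR beta, moved far less, from 15.3, 19, 21.3 and 20.2 CPM at E17 to 44.8, 69.7, 56.7 and 68.2 CPM at P60. It rose 2.40-fold to P14 (adjusted p = 0.00037) and did not pass after that (P60 against P14, adjusted p = 0.30). Mylip, the ligase that marks lipoprotein receptors for breakdown, was at 25.9 ± 0.859 CPM at P5, 42.9 ± 3.41 at P14 and 68.2 ± 2.65 at P60, and rose 1.66-fold (adjusted p = 7.5e-07) and then 1.67-fold from P24 (adjusted p = 1.5e-06). Its change from E17 to P14 turned with the scaling, from 0.28 to -0.21 with library size alone, against a median of all genes of -0.48 in that scaling.

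The genes of the 2 ABC exporters both fell from E17 to P1 and rose from P1 to P5 and from P24 to P60, but from P5 to P14 Abcg1 rose and Abca1 fell. Abcg1 was at 1.09, 1.87, 2.33 and 1.99 CPM at P1, 43.3, 42, 46.4 and 41.6 CPM at P14 and 55.9, 75.3, 73.1 and 70.4 CPM at P60. It rose 7.14-fold from P1 to P5 (adjusted p = 1.9e-11), 3.32-fold from P5 to P14 (adjusted p = 1.2e-08) and 1.71-fold from P24 to P60 (adjusted p = 0.0014), and the 3 stages did not overlap. Abca1, whose promoter holds the LXR repeat shown above, was at 83.6 ± 6.98 CPM at P1, below E17 (adjusted p = 0.040, lost in 8 of 20 alternative fits), and rose 1.74-fold to P5 (adjusted p = 0.011). It then went down from 142, 161, 126 and 152 CPM at P5 to 37.1, 31.1, 44.9 and 40.9 CPM at P24. Every P24 library was under every P5 library, with falls of 1.90-fold to P14 (adjusted p = 0.0019) and 1.98-fold to P24 (adjusted p = 0.0062), and at P60 it was back at 67.6 ± 11.7 CPM (1.76-fold above P24, adjusted p = 0.012).

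Of the uptake genes, Lrp1, a large receptor for apolipoprotein E and other ligands, was at 120.0, 213, 243 and 247 CPM at P1 and 707, 761, 773 and 818 CPM at P60. P1 replicate 1 lay far below its stage, and the P60 libraries were above all libraries of every other stage. Lrp1 rose 1.89-fold from E17 to P14 (adjusted p = 0.0019) and 1.67-fold from P14 to P60 (adjusted p = 0.019, but 0.06 without P14 replicate 1). The call from E17 to P14 was lost in 2 of 20 alternatives, with the log2 fold change down to 0.42 and the adjusted p up to 0.117. Apoe, the lipid carrier, was at 365, 417, 469 and 485 CPM at E17, 89, 179, 200.3 and 220.4 CPM at P1 and 447, 595, 538 and 587 CPM at P60. It fell 2.52-fold from E17 to P1 (adjusted p = 0.00089), with the lowest P1 value again in replicate 1, and rose 1.99-fold from P5 to P14 (adjusted p = 0.010), and P14 against E17 did not pass (adjusted p = 0.78).

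Npc1 and Npc2 lead cholesterol out of the lysosome, and Stard4 carries it between membranes. Npc2 rose 2.40-fold and Npc1 2.08-fold from E17 to P14, to 419.7 ± 24.3 and 229.6 ± 4.70 CPM. Stard4, a known SREBP2 target, peaked at 192 ± 17 CPM at P24 and fell 1.73-fold to P60 (adjusted p = 0.0010). Soat1, which esterifies cholesterol for storage, had its highest mean at E17, at 70.2, 66.7, 66.9 and 64.4 CPM, above all libraries of every other stage. It fell 2.13-fold to P1 (adjusted p = 2.7e-06) and was at 28.9, 18.2, 20.5 and 20.1 CPM at P60, the lowest stage mean, with a range that overlapped P14 and P24.

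**Figure D4:**
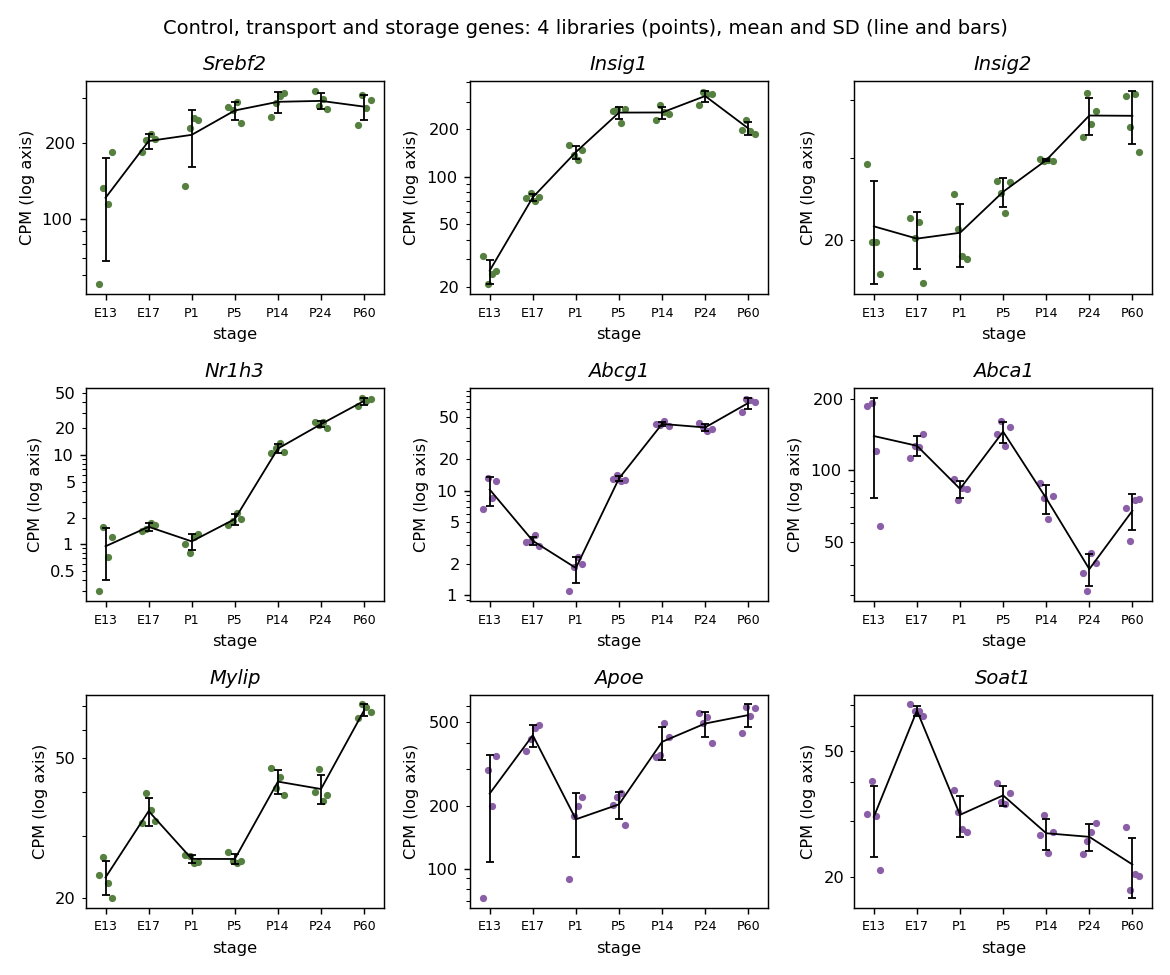
CPM on log axes against stage for 9 control and transport genes, with points for the 4 libraries of a stage and lines and bars for the mean and SD. Nr1h3, Abcg1 and Mylip are highest at P60, Insig1 peaks at P24 with a mean of 325 CPM, Abca1 is lowest at P24 and Soat1 highest at E17.

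Within a stage, too, most of the enzymes varied together from library to library. For each of the 24 libraries from E17 on, the deviation of a gene from its stage mean in log2 CPM was set against the mean deviation of the other enzymes. The median Pearson r of the 20 enzymes was 0.67 over the 24 libraries, and that of all tested genes was 0.024. Fdps (0.86), Lss (0.85), Dhcr7 (0.84) and Hsd17b7 (0.79) had the highest r of the enzymes, and Insig1 (0.76), Npc2 (0.59) and Stard4 (0.48) came with them. Other enzymes were lower, with Pmvk at 0.36, Ebp at 0.34, Mvd at 0.33 and Mvk at 0.099, but without P1 replicate 1 Pmvk was at 0.59, Mvd at 0.56 and Mvk at 0.32, and with the GC trend of each library removed Mvd was at 0.84. Srebf2 was at 0.13, Ggps1 at -0.018, Lbr at -0.38 and Abca1 at -0.54. The values of a library share its depth and base composition, so these r are a description. With the GC trend removed the median was 0.78 and Srebf2 was at 0.36, and without P1 replicate 1 the median was 0.77.

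The largest such deviation from E17 on was in P60 replicate 2, where 18 of the 20 enzymes lay above their P60 mean, with a median of 0.24 log2 units against 0.0028 over all genes. P60 replicate 3 and P14 replicate 1 lay lowest, with medians of -0.14 and -0.12 and 2 of 20 enzymes above the mean in each. Insig1 deviated by 0.19 in P60 replicate 2. The libraries of P60 still all lay below those of P14 for Hmgcs1, Lss and Tm7sf2. Between libraries of a stage the median coefficient of variation of the enzymes was 35.1% at E13, where all genes had 35%, and from 5.37% at P24 to 12.9% at P60 later. All genes had 14% at P24 and 12.9% at P60.

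**Figure D5:**
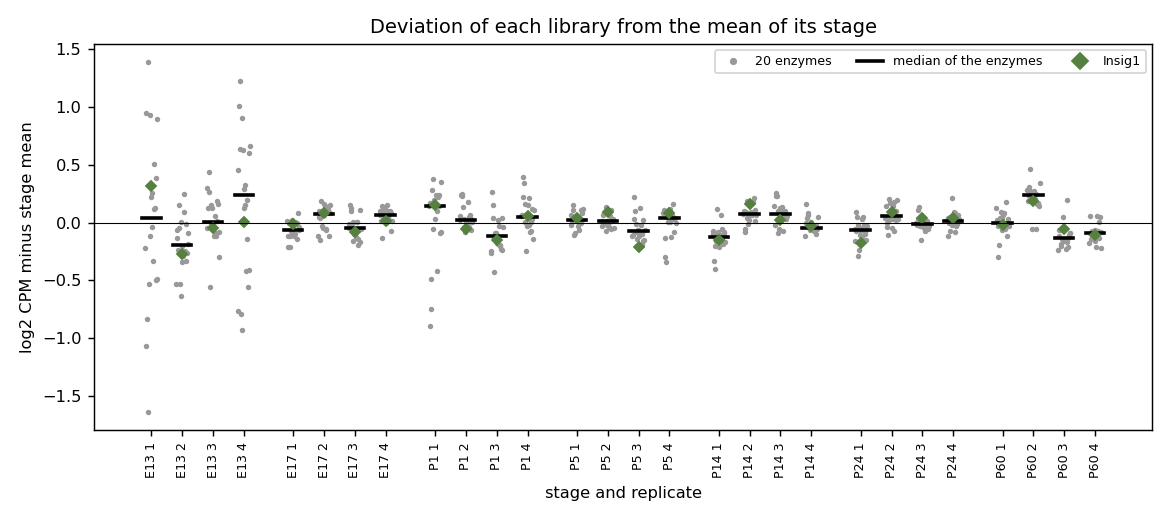
Deviation of each of the 20 enzymes (grey points) from its stage mean in log2 CPM, for each of the 28 libraries on the horizontal axis, with the median of the enzymes (black bars) and Insig1 (green diamonds). The points of the E13 libraries spread widely, and in P60 replicate 2 the median is 0.24 while P60 replicate 3 is at -0.14.

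Of a further 41 genes of sterol and isoprenoid metabolism, 40 were tested and Faxdc2 was not matched. From E17 to P14, 15 of the 40 rose and 8 fell, against 29.5% and 27% of all genes (median log2 fold change 0.13). The largest rises were in Apod, a lipid-binding apolipoprotein (5.83 ± 0.17, adjusted p = 3e-20), and Cyp27a1, which makes an oxysterol (2.73 ± 0.22, adjusted p = 3.6e-11). The largest falls were in the lipoprotein receptor genes Lrp8 (-2.95 ± 0.34, adjusted p = 3.2e-08) and Lrp2 (-2.15 ± 0.54, adjusted p = 0.0014), the latter at 1.33 CPM at E17. From P14 to P60, 7 of the 40 rose and 7 fell, against 14.2% and 15.7% of all genes. Ch25h, which makes another oxysterol, went from 0.257 to 3.65 CPM (log2 fold change 3.79 ± 0.57, adjusted p = 9.2e-06) and Apod from 768 to 7000.1 CPM (3.19 ± 0.15, adjusted p = 1e-14), while Lcat, which esterifies cholesterol in lipoproteins (-1.14 ± 0.22, adjusted p = 0.00026), and the lipoprotein receptor gene Scarb1 (-1.10 ± 0.17, adjusted p = 8.3e-06) fell most among those that passed, and Lrp2 was at -1.75 without passing (adjusted p = 0.11).

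Markers of the cell types in the nerve moved along the same stages, and their part in the results was not tested. The myelin sum peaked at P14 and ran from 38264 to 51087 CPM at P60, while the sum of 6 Schwann cell markers ran from 1459 to 1597 CPM at E17, 1894 to 2110 CPM at P14 and 2132 to 2394 CPM at P60. These 6 did not move together. From E17 to P14 S100b rose (log2 fold change 3.95), Erbb3 (-0.63) and Sox2 (-1.20) fell, and Sox10, Cdh19 and Foxd3 did not pass. From P14 to P60 S100b (0.53) and Cdh19 (0.74) rose, Erbb3 fell (-0.66), and Sox10, Foxd3 and Sox2 did not pass. The sum of 5 markers of dividing cells ran from 2134 to 2225 CPM at E17 and from 4.17 to 6.15 CPM at P60. Beside the late rise of Nr1h3 and Abcg1, the sum of 9 macrophage markers, all detected at every stage, ran from 139 to 165 CPM at P1, 224 to 297 CPM at P14 and 245 to 332 CPM at P60. Among the 9, Cd163 (log2 fold change 1.83) and Cd68 (0.58) rose from P14 to P60, Cx3cr1 fell (-1.66), and the other 6 did not pass. The sum of 4 endothelial markers ran from 141 to 161 CPM at P1, 240 to 305 CPM at P14 and 337 to 362 CPM at P60, with no overlap between these stages. The sum of 8 adipocyte markers ran from 0 to 0.314 CPM at E17, where 5 of the 8 including Plin1 were at 0, from 2.28 to 91.8 CPM at P14 and from 181 to 495 CPM at P60. From P14 to P60 Adipoq, Plin1, Cidec, Lep, Cfd and Retn rose, while Cidea fell (log2 fold change -5.05). The mean of Ucp1, which did not enter the test, went from 17.7 CPM at P14 to 0.183 CPM at P60. The 6 mesenchymal markers summed to 4129 to 5864 CPM at P14 and 4111 to 5663 CPM at P60.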

How the data were processed

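The data were bulk mRNA libraries of mouse peripheral nerve, 4 for each of 7 stages. Per the study and the submitters' processing notes, stranded TruSeq poly-A libraries were sequenced single-end, aligned with STAR 2.6.1c to GRCm38.p5 and counted with featureCounts. The methods text names a human build, while the identifiers are mouse. The authors deposited raw read counts per gene, not normalized. The strand setting and the handling of multi-mapping reads are not given in the sources used here, so overlapping and antisense genes are uncertain.

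Of 41605 identifiers 41519 matched GENCODE M21 (GRCm38), which gave positions and exonic lengths. Genes were filtered with filterByExpr by stage, which left 17700. All 28 libraries entered 1 fit in edgeR 4.0.16 (R 4.3.3; TMM, robust glmQLFit, glmQLFTest) with stage as the only term, and p-values were adjusted by Benjamini-Hochberg over all 17700 genes. The standard error is the size of the log2 fold change over the square root of F. The common dispersion was 0.044. The study names no differential test for this timeline. Log2 CPM used a prior count of 2.

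Replicates are separate samples, no 2 columns were identical, and every pair of replicates differed by more than counting noise (chi-square per gene 5.21 to 293). At these totals counting error is small, and Nr1h3 from E13 to P1 and Abcg1 at P1 rest on the fewest counts. Same-numbered libraries of adjacent stages correlated by -0.059 to 0.29, so numbers were not taken as pairs.

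The members, role groups and other lists were chosen with earlier results of these data known. Values of every library are given for the 3 members of each role group with the largest range of stage means from E17 to P60, at their highest and lowest stages and, for some, at another, and for Sqle, Srebf2 and Apoe. Those of Soat1 were added after its values were seen. Of the further pathway genes the 2 largest changes in each direction among those that passed are named, and Lrp2. Alternatives were other scalings and filters, removal of a GC trend, DESeq2 1.42.0, limma-voom (limma 3.58.1), subsets of stages, a replicate block and each library left out. A fit without the 3 GC-trended libraries was added after seeing the data.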

Additional observations from a re-analysis of the deposited data

Results flagged for a closer look

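Of 252 groups of 4 libraries (35 genes and the median deviation of the enzymes, in 7 stages), 12 held a library whose gap to the nearest of the other 3 was a larger share of the group's range than Dixon's critical value. Chance flags about 1 in 20, or 12.6 groups here. Mvd was at 93.6 CPM in P5 replicate 4, below the other 3, and at 62.1 CPM in P60 replicate 2, above them. Nr1h2 at 26.7 CPM and Ebp at 43.9 CPM were also low in P5 replicate 4, and Npc2 at 376 CPM was also high in P60 replicate 2. Msmo1 at 60.4 CPM and Sc5d at 48.1 CPM were high in E13 replicate 1. Tm7sf2 was low in P24 replicate 4, at 157 CPM, and Dhcr7 in P14 replicate 1, at 129 CPM. Lbr was high in P60 replicate 3, at 87.2 CPM, Msmo1 in P24 replicate 2, at 960.3 CPM, and Mylip in P5 replicate 1, at 27.1 CPM.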

How the results depend on the processing

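Of 162 member fold changes that passed, the alternatives reversed 1. That was Mylip from E17 to P14, at -0.21 with library size alone (adjusted p = 0.05 in edgeR). Library size alone also lost 20 of the 162 calls and gained 10. Requiring a 2-fold change lowered the counts of members that passed to 10 for E17 against E13, 7 for P1 against E17, 12 for P5 against P1, 3 for P14 against P5, 0 for P24 against P14, 12 for P60 against P24 and 13 for P60 against P14. Of all 17700 genes, this rule called 2518 higher and 3758 lower for E17 against E13, and 1116 and 958 for P1 against E17. It called 717 and 316 for P5 against P1, and 1258 and 869 for P14 against P5. For P24 against P14 the counts were 268 and 201. They were 451 and 604 for P60 against P24, and 1257 and 1028 for P60 against P14. For P14 against P5 the count rose from 17 to 28 in a fit of the compared stages only and with limma-voom. For P24 against P14 it rose from 2 to 4 with DESeq2, to 6 with the GC trend removed, to 8 with the compared stages only, with limma-voom and without the 3 GC-trended libraries, and to 9 without E13. The cause was not tested, and shares of all genes were not counted in the alternative fits. Leaving out 1 library in turn, the counts ran from 19 to 25, 18 to 23, 21 to 23, 12 to 15, 2 to 3, 22 to 24, 32 to 33 and 20 to 22 in the order of the 6 steps followed by P14 against E17 and P60 against P14, and 78 of 1296 calls were lost. Calls lost without any 1 of at least 6 libraries were those of Ebp (8 libraries, adjusted p up to 0.117), Soat1 (7, up to 0.152) and Pmvk (6, up to 0.11) at P14 against P5, Mvk (6, up to 0.152, without P1 replicate 1) and Stard4 (6, up to 0.115) at P5 against P1, Abca1 at P1 against E17 (6, up to 0.104), Srebf2 at P14 against E17 (6, up to 0.0918) and Pmvk at P60 against P24 (6, up to 0.0924). Numbers did not pair the libraries, and with the replicate block the counts were 20, 20, 25, 17, 2, 24, 33 and 22, with no call lost. The stage of the highest mean was kept by 25 of 35 genes with library size alone and by 30 with DESeq2 size factors. The median deviation of the enzymes became 0.012 in P1 replicate 1 with the GC trend removed and -0.017 in P24 replicate 2 with library size alone. Library size alone moved the median of all genes by -0.33, -0.11, -0.19, -0.17, 0.051, 0.099, -0.48 and 0.15 in the same order.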
